A study of Mus musculus with 6 samples.

Results

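The MS4A genes described here are 9 members of the mouse family, chosen by name to leave out those of B cells and mast cells, namely Ms4a4a, Ms4a4b, Ms4a4c, Ms4a4d, Ms4a6b, Ms4a6c, Ms4a6d, Ms4a7 and Ms4a8a. They were found by their symbols among the 15415 genes of the deposited table, and 8 of them were among the 9030 genes that reached a mean of 1 FPKM in at least 1 group and were tested. FPKM scales the reads of a gene by its length and by all reads counted in the library, so that levels can be compared between genes of different length. Ms4a6c (1.66 times the control mean) and Ms4a6b (3.07 times) were higher in the peritoneal cell libraries of Tim-4 knockout mice and passed the test. Both calls were lost when control library 2 or any 1 knockout library was left out. Ms4a4c was higher in every knockout library but passed only with the replicate number as a block, Ms4a6d, the most abundant member, lay within the control range, and Ms4a4a, Ms4a7 and Ms4a8a varied more among the control libraries than between the groups.

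The RNA came from starch-elicited peritoneal macrophages (PEMs) in 3 libraries of the genotype LysM-Cre; Tim-4 fl/fl (knockout libraries 1 to 3) and in 3 of Tim-4 fl/fl littermates without Cre (control libraries 1 to 3). The floxed line was made in C57BL/6J, and the methods give male mice aged 6 to 8 weeks, an intraperitoneal injection of 1 ml of 6% starch and collection after 3 days. LysM-Cre is expressed from Lyz2 and acts in macrophages, monocytes and neutrophils, and no control carried Cre alone. All 6 libraries carry LPS as their treatment label. LPS at 1 μg/ml for 3.5 hours is the activation that the methods describe for PEMs, and they leave unsaid whether the sequenced cells were treated so. The genotype entries in the labels are swapped relative to the titles, and the groups were taken from the titles. Nothing states whether a library is 1 mouse or a pool, so the p-values measure the spread between these libraries, which may be technical.

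As a check of the groups, Timd4, the gene of Tim-4, lay at 0.246 to 0.394 FPKM in the knockout group and at 1.19 to 19.5 FPKM in the control group, with an adjusted p of 0.0715 from limma, and of 0.0436 with the replicate number as a block, 0.0458 with a pseudocount of 0.1 and 0.00041 without control library 3. Lyz2 lay at 41.4 to 4656 FPKM in the former and at 7090 to 8482 FPKM in the latter. Control library 3 held the lowest Timd4 of the controls, and knockout library 2 held the highest Lyz2 of the knockouts. Timd4 is also a marker of large peritoneal macrophages, and the other tested markers of these cells were lower too. Its level therefore cannot tell deletion from fewer such cells. Between 36170767 and 42217558 reads per library fell on the listed genes. The 7 macrophage markers were all tested (Adgre1, Csf1r, Cd68, Itgam, Mertk, Cd14 and C1qa) and summed to 2651 to 2946 FPKM in the knockout and 2282 to 2763 FPKM in the control libraries. None of them passed an adjusted p of 0.05 by limma or by voom, while 3 had an unadjusted p under 0.05 by limma. Of these 3, Cd68 was higher in every knockout library, with a log2 fold change of 0.62. Csf1r (-0.71) and Cd14 (-0.73) were lower in every knockout library, so the similar sums cover opposite directions. In such bulk RNA, fewer cells of a type and less RNA per cell cannot be told apart.

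MS4A proteins are small, several-times membrane-spanning proteins that sit beside immune receptors and tune their signals. The best known are CD20 of B cells (Ms4a1) and the beta chain of the high-affinity IgE receptor of mast cells (Ms4a2). In macrophages, MS4A4A joins the beta-glucan receptor Dectin-1 in lipid rafts, MS4A6D acts with the complement receptor Vsig4 to restrain the Nlrp3 inflammasome, and MS4A7 marks resident tissue macrophages. Ms4a8a is a gene of macrophages exposed to IL-4 and glucocorticoid, and Ms4a4b is best known from T cells, where it associates with the receptor GITR. In humans the MS4A cluster is tied to the level of soluble TREM2.

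All 9 members lie on mouse chromosome 19, in a cluster of 17 protein-coding genes between the outermost members by the gene order of RefSeq on GRCm38.p6. RefSeq promoters, from 250 bases before to 50 bases after a gene start, were found for 8 of the 9 members, Ms4a6d being the missing entry. The 2 pairs of members with the most similar promoters are shown because they include all 3 members whose groups did not overlap (Ms4a6b, Ms4a6c and Ms4a4c). The promoters of Ms4a6b (chr19:11518309-11518608, + strand) and Ms4a6c (chr19:11469118-11469417, + strand) aligned over 222 columns, of which 182 (82.0%) were identical. Those of Ms4a4b (chr19:11443308-11443607, + strand) and Ms4a4c (chr19:11407411-11407710, + strand) aligned over 183 columns, of which 162 (88.5%) were identical. Coordinates are of GRCm38.p6, and capitals mark the longest run of bases that each promoter shares with its partner.
Ms4a6b: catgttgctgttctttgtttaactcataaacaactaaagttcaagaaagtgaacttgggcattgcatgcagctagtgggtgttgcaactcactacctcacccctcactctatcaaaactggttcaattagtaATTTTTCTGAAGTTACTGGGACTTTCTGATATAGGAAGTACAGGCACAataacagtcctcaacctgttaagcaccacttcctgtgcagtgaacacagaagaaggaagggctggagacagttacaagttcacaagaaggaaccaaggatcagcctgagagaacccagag
Ms4a6c: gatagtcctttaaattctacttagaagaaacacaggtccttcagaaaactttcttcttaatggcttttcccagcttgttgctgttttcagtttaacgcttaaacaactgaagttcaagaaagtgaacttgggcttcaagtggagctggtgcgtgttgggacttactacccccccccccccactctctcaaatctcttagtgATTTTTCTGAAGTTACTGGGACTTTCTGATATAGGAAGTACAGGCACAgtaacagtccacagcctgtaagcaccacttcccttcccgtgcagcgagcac
Ms4a4b: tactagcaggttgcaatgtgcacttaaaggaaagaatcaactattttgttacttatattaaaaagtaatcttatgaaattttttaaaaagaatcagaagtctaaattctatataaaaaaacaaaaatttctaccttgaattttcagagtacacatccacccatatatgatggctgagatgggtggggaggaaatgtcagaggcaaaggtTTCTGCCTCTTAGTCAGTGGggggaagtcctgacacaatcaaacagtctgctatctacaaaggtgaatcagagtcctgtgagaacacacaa
Ms4a4c: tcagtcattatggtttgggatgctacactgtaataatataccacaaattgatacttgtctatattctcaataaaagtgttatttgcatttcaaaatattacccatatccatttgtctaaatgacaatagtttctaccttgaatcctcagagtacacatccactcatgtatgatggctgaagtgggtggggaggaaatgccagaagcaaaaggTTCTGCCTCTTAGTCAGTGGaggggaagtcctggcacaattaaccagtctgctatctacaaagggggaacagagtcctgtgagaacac

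The run shared by Ms4a6b and Ms4a6c is 48 bases long and starts 118 bases before the gene start in Ms4a6b and 49 bases before it in Ms4a6c. It holds a match to the PU.1 motif AGGAAGT, which stands 86 bases before the start in Ms4a6b and 17 bases before it in Ms4a6c. The Ms4a6b promoter has another match on the opposite strand, 43 bases before the start. On either strand, AGGAAGT occurs in 9.35% of the 32851 RefSeq promoters of this length. The run shared by Ms4a4b and Ms4a4c is 20 bases long. The AP-1 motif TGANTCA, present in 7.81% of promoters, was found in Ms4a4b, in 1 of the 2 promoters of Ms4a7 and in Ms4a8a, and the C/EBP motif TTGCNNAA (10.8%) in Ms4a4d. The interferon-stimulated response element, searched as GAAA and GAAA with any 2 bases between them (3.44%), and the GAS motif TTCNNNGAA (8.30%) had no match in these windows of the members. Both strands were searched for each motif, and the matches do not overlap those of another motif.

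The levels of the 9 members ran from 0.0313 FPKM (Ms4a4d) to 560 FPKM (Ms4a6d) over the 6 libraries. On the FPKM scale, the order of the mean levels in the knockout libraries was Ms4a6d, Ms4a6c, Ms4a4a, Ms4a7, Ms4a4c, Ms4a8a, Ms4a6b, Ms4a4b and Ms4a4d. The ranges of neighbours in that order did not overlap between Ms4a6d and Ms4a6c, between Ms4a6b and Ms4a4b, and between Ms4a4b and Ms4a4d, and all other neighbours overlapped. In the control libraries Ms4a8a came right after Ms4a4a, before Ms4a7 and Ms4a4c, and the rest of the order was the same. There the ranges were apart between Ms4a6d and Ms4a6c, between Ms4a4c and Ms4a6b, between Ms4a6b and Ms4a4b, and between Ms4a4b and Ms4a4d. The summed FPKM of the 9 members was 934.0 ± 105 (SD, n = 3) in the knockout and 855.8 ± 60.4 (SD, n = 3) in the control libraries, with values of 974, 815 and 1013 against 858, 915 and 794, so the groups overlapped.

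**Figure D1:**
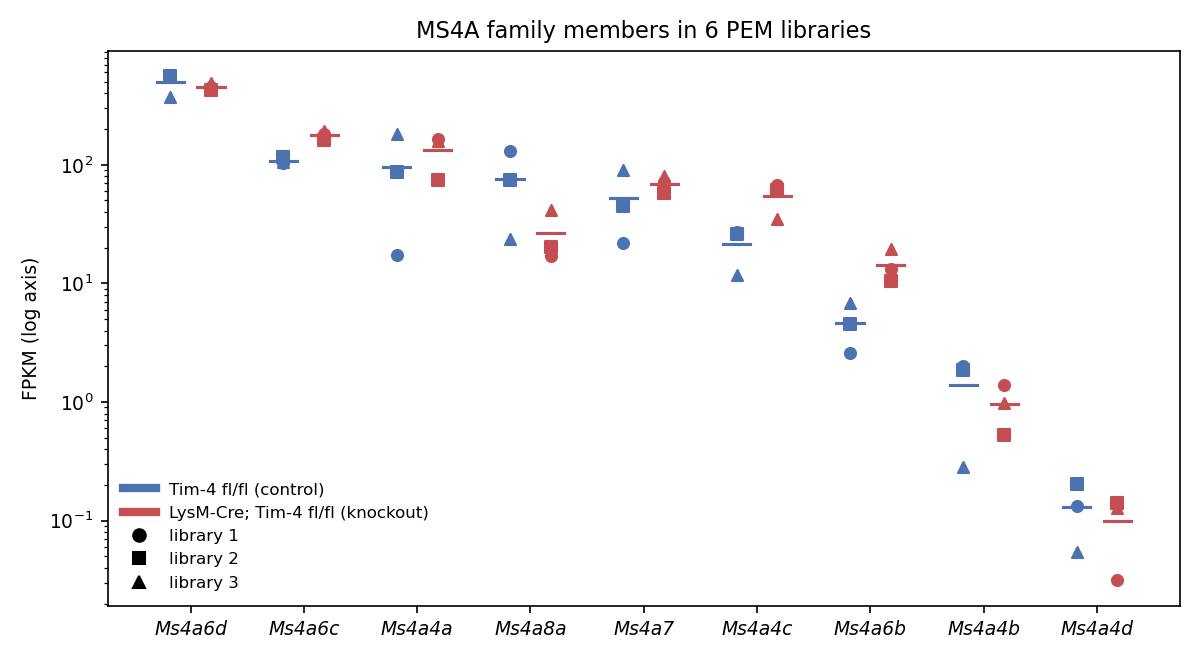
FPKM of each member (log axis) in the 3 control and 3 knockout libraries, with the marker giving the library number and the short line the group mean. The groups are apart for Ms4a6c, Ms4a4c and Ms4a6b, and control libraries 1 and 3 stand far from each other for Ms4a4a, Ms4a8a and Ms4a7.

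Of the 8 tested members, 5 had a higher and 3 a lower mean log2 level in the knockout libraries. Expression was fitted with limma as log2(FPKM + 1), which understates the change of low genes, and a member passed at an adjusted p under 0.05 over all 9030 genes. By this test 2 members were higher (Ms4a6b and Ms4a6c), where 2.57% of all tested genes were higher. None was lower, where 4.74% of all tested genes were lower, and no member that was lower had an unadjusted p under 0.05 or passed by voom. The knockout libraries all lay above the controls for 3 members (Ms4a6b, Ms4a6c and Ms4a4c), an arrangement found in 11.1% of the tested genes. The opposite arrangement, found in 23% of the tested genes, occurred for no member. The median log2 fold change was 0.66 over the 8 members and -0.11 over all tested genes, and scaling the libraries by the median of ratios moved them to 0.81 and 0.01.

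**Figure D2:**
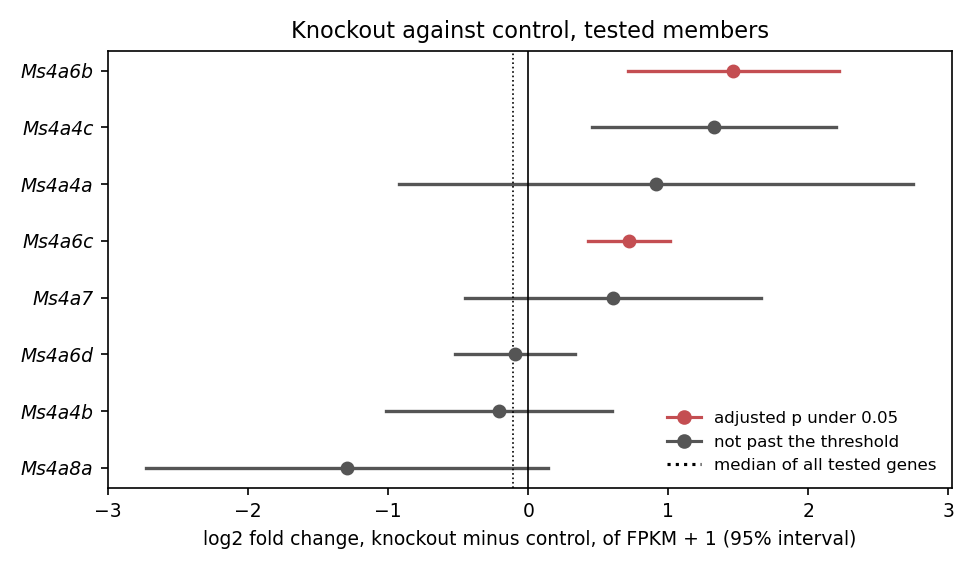
Log2 fold change of FPKM + 1, knockout minus control, for the 8 tested members, with 95% intervals from limma. The intervals of Ms4a6b, Ms4a4c and Ms4a6c lie above 0, and the dotted line is the median of all tested genes at -0.11.

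Ms4a6c (Entrez 73656), a gene of monocytes and macrophages and the second most abundant member, measured 182, 163 and 194 FPKM in knockout libraries 1 to 3. Control libraries 1 to 3 measured 104, 115 and 106 FPKM. The 2 groups did not overlap, and the libraries within each lay close together. The means were 179.7 ± 15.4 and 108.5 ± 6.03 FPKM (SD, n = 3 each), and limma gave a log2 fold change of 0.72 (95% interval 0.43 to 1.01, standard error 0.13, adjusted p = 0.0216). A two-sided exact permutation test on the FPKM gave p = 0.1, the smallest value that 3 libraries against 3 allow. The call was lost without any 1 knockout library (adjusted p 0.109, 0.0825 and 0.0538 by limma without knockout libraries 1, 2 and 3) and without control library 2 (0.0883), while the log2 fold change stayed between 0.67 and 0.87 in the 12 other fits.

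Ms4a6b (Entrez 69774), the close paralogue of Ms4a6c, measured 13.2, 10.4 and 19.3 FPKM in knockout libraries 1 to 3. The controls measured 2.60, 4.57 and 6.85 FPKM. No control reached the lowest knockout library, with 744 to 1334 reads in the knockout and 173 to 418 reads in the control libraries. By limma the log2 fold change was 1.46 (95% interval 0.71 to 2.22, standard error 0.32, adjusted p = 0.0395), with means of 14.3 ± 4.54 and 4.67 ± 2.13 FPKM (SD, n = 3 each) and an exact permutation p of 0.1. The adjusted p from limma rose to 0.135, 0.101 and 0.0854 without knockout libraries 1, 2 and 3, to 0.151 without control library 2 and to 0.0739 with no filter on low values. The log2 fold change stayed between 1.17 and 1.81 in these and the other fits.

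Ms4a4c (Entrez 64380), transcribed in monocytes and in cells exposed to interferon, measured 68.1, 60.9 and 34.6 FPKM in the knockout libraries. The controls measured 27.1, 26.2 and 11.7 FPKM. The groups did not overlap, and library 3 was the lowest of its group on both sides. The log2 fold change of 1.33 (95% interval 0.45 to 2.20, standard error 0.37) fell short of the threshold by limma (adjusted p = 0.0726), with means of 54.5 ± 17.7 and 21.6 ± 8.66 FPKM (SD, n = 3 each). With the replicate number as a block, Ms4a4c passed (adjusted p = 0.0134 from limma), and 3.9% of all tested genes were called higher in that fit. The other fits gave adjusted p-values between 0.0595 and 0.251.

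The 3 members whose groups did not overlap were spread differently over the libraries. In log2(FPKM + 1) centred on each gene's own mean, Ms4a6b was lowest in control library 1 (-1.32) and highest in knockout library 3 (1.18), whereas Ms4a4c was lowest in control library 3 (-1.41) and highest in knockout library 1 (1.04). Ms4a6c stayed between -0.42 and 0.47 in all 6 libraries. The transcripts of these genes are in part alike. In GENCODE M21 coding transcripts, 5.66% of the 50-base stretches of Ms4a6b, 6.08% of those of Ms4a6c, 8.13% of those of Ms4a4c and 2.85% of those of Ms4a4b also occur in another member, so reads from these stretches could be assigned to a paralogue. The share was 2.69% for Ms4a6d, with Ms4a6b, and 0.546% for Ms4a4d. For Ms4a4a, Ms4a7 and Ms4a8a no such stretch was shared. Counting stretches found in any other gene, the share was 11.3% for Ms4a6c, 5.89% for Ms4a6b and 4.19% for Ms4a4b, and unchanged for the rest.

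Ms4a4a (Entrez 666907), the Dectin-1 partner, measured 165, 74.4 and 158 FPKM in the knockout libraries. The controls measured 17.5, 86.8 and 182 FPKM. The control libraries spanned 10.4 times from lowest to highest, the knockout libraries 2.22 times, and the groups overlapped. By limma the log2 fold change was 0.91 (95% interval -0.92 to 2.75, standard error 0.78, adjusted p = 0.478; exact permutation p on FPKM = 0.7). Without control library 1 it was -0.012, so its direction rested on that library. The SD of log2(FPKM + 1) among the controls was 1.69, a value reached by 0.133% of the tested genes, against 0.64 among the knockout libraries.

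Ms4a7 (Entrez 109225), the gene of resident macrophages, followed the same order of control libraries. The knockout libraries measured 71.1, 57.4 and 79.9 FPKM and the controls 22.0, 45.3 and 89.9 FPKM, with overlap. By limma the log2 fold change was 0.60 (95% interval -0.45 to 1.66, standard error 0.45, adjusted p = 0.414), and it was 0.11 without control library 1 and 1.10 without control library 3. The log2 SD was 0.99 among the controls and 0.24 among the knockout libraries. Of the tested genes, 1.83% had a control SD at least as large.

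Ms4a8a (Entrez 64381), the IL-4 and glucocorticoid gene, ran the other way among the controls. The knockout libraries measured 17.0, 20.3 and 41.7 FPKM and the controls 131, 74.0 and 23.5 FPKM. Control library 3 lay within the knockout range, and the other controls lay above all knockout libraries. The control mean was 2.89 times the knockout mean, and limma gave a log2 fold change of -1.29 (95% interval -2.73 to 0.14, standard error 0.61, adjusted p = 0.216; exact permutation p on FPKM = 0.2). Without control library 3 the log2 fold change was -1.97 and passed (adjusted p = 0.0235 from limma), without control library 1 it was -0.75 (adjusted p = 0.355), and over the fits other than the first of these the adjusted p lay between 0.179 and 0.480. Its control SD of 1.24 was reached by 0.764% of the tested genes.

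Control libraries 1 and 3 thus stood at opposite ends for these 3 members. On the FPKM + 1 scale, Ms4a4a was 9.91 times and Ms4a7 3.95 times as high in control library 3 as in control library 1, and Ms4a8a was 5.38 times as high in control library 1. A ratio of at least 4, which Ms4a7 did not reach, was found in 0.664% of the tested genes in the first direction and in 0.864% in the second. The SD was larger among the control than among the knockout libraries for 7 of the 8 members (Ms4a6c was the exception) and for 73.6% of all tested genes.

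**Figure D3:**
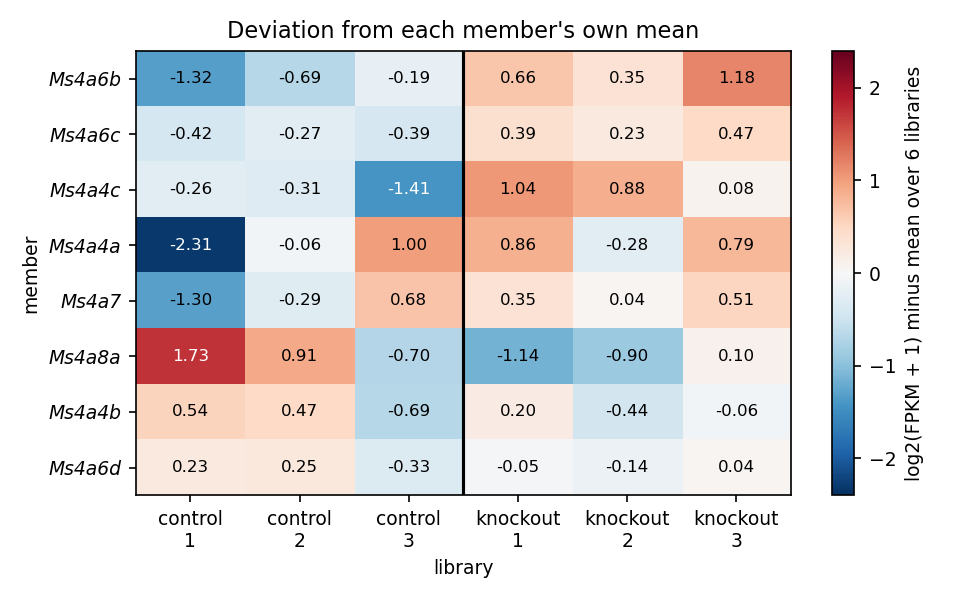
Log2(FPKM + 1) minus the mean over 6 libraries for each tested member (rows) in each library (columns), from blue (low) to red (high), with the value printed in each cell. Ms4a4a runs from -2.31 in control library 1 to 1.0 in control library 3, and Ms4a8a from 1.73 to -0.70 in the same libraries.

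Markers of other peritoneal cells also differed between these control libraries, and their part in the values of the members was not tested. Markers of large peritoneal macrophages, the resident cells that carry Tim-4, summed to 252.5, 176.6 and 98.1 FPKM in control libraries 1 to 3 and to 10.6 to 21.1 FPKM in the knockout libraries. Of the 6 tested, 5 were lower (Prg4, Cd5l, Vsig4, Icam2 and Alox15), Timd4 did not pass in the fit without a block, and Gata6, which defines these cells, was at or below 1.07 FPKM in every library. The markers of Ly6C-high monocytes summed to 3028, 2142 and 213 FPKM in the controls and to 106 to 136 FPKM in the knockout libraries. Most of these controls' sums was Chil3, a gene that IL-4 also induces. Without Chil3 the sums were 37.0, 47.3 and 68.8 FPKM in the controls and 41.7, 28.8 and 90.8 FPKM in the knockout libraries, with overlap. Plac8 was lower among the 6 tested (with Chil3 as well under the replicate block), Ly6c2 and F13a1 had log2 fold changes of 0.21 and 0.76 without passing, and Ccr2 was at or below 0.375 FPKM throughout. Those of B cells summed to 116, 79.9 and 31.2 FPKM against 10.7 to 11.4 FPKM, with 5 of 6 tested lower (Cd79a, Cd79b, Ms4a1, Pax5 and Fcrla). The sums for large peritoneal macrophages and B cells were highest in control library 1 and lowest in control library 3, as Ms4a8a was. Chil3 had that order too, whereas Ly6c2 (5.42, 14.9 and 32.5 FPKM) and F13a1 (7.08, 15.7 and 32.2 FPKM) were lowest in control library 1, as Ms4a4a and Ms4a7 were.

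The remaining marker lists gave the following sums. Mast cell markers were at 38.5 to 49.8 FPKM in the control and 1.95 to 2.33 FPKM in the knockout libraries, with all 5 tested lower (Cpa3, Kit, Cma1, Tpsb2 and Mcpt4). Neutrophil markers were at 232, 309 and 479 FPKM in the controls and 109 to 230 FPKM in the knockout libraries, with S100a8 and Camp lower among 6 tested. Within the controls Mmp8 (19.5, 122 and 294 FPKM) alone carried the order, which was that of Ms4a4a and Ms4a7. Without Mmp8 the neutrophil sums were 213, 188 and 185 FPKM in control libraries 1 to 3, the opposite order. In knockout libraries 1 to 3 they were 105, 79.7 and 103 FPKM. Mesothelial and fibroblast markers had the control order of Ms4a4a and Ms4a7, at 2.13, 5.73 and 11.5 FPKM, and were at 11.7, 31.8 and 14.4 FPKM in the knockout libraries. All 4 tested were higher, none passed by limma without a block or by voom, 3 passed with the block (Col1a1, Col1a2 and Pdgfra), and 3 had an unadjusted p under 0.05. Small peritoneal macrophage markers overlapped between the groups (544 to 1278 against 854 to 2326 FPKM), with Irf4 lower among 6 tested. The only dendritic cell marker tested, Ccr7, was lower in every knockout library without passing by limma or voom (unadjusted p under 0.05), and no eosinophil marker reached the filter, with sums at or below 1.25 FPKM. By voom the lower markers numbered 4 for large peritoneal macrophages, 1 for B cells, 1 for neutrophils and 5 for mast cells, with none for Ly6C-high monocytes, small peritoneal macrophages and T and NK cells. With the replicate block Kit and Camp lost their calls and Retnlg gained one.

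Ms4a6d (Entrez 68774), the Vsig4 partner, was the most abundant member in every library. The knockout libraries measured 456, 427 and 485 FPKM and the controls 552, 560 and 374 FPKM. The knockout libraries lay between the lowest and the higher 2 control libraries. By limma the log2 fold change was -0.10 (95% interval -0.53 to 0.33, standard error 0.18, adjusted p = 0.759), and its sign changed to 0.05 under scaling by the median of ratios and to 0.003 without control library 2. Its share of the summed FPKM of the 9 members was 46.8% to 52.5% in the knockout libraries and 64.3%, 61.3% and 47.1% in control libraries 1 to 3. The share of Ms4a6c was 18.7% to 20.0% in the knockout and 12.2% to 13.3% in the control libraries, without overlap.

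Ms4a4b (Entrez 60361), the T cell member, was near the filter. The knockout libraries measured 1.38, 0.527 and 0.990 FPKM (73, 28 and 51 reads) and the controls 2.01, 1.88 and 0.285 FPKM (100, 92 and 13 reads). The groups overlapped, and limma gave a log2 fold change of -0.21 (95% interval -1.01 to 0.60, standard error 0.34, adjusted p = 0.723) that turned to 0.008 without control library 1. T and NK cell markers summed to 12.2, 7.99 and 2.98 FPKM in the controls and to 1.47 to 2.22 FPKM in the knockout libraries, and of the 2 tested Cd2 alone passed, while the T cell receptor chain gene Cd3d was at or below 0.218 FPKM and at 0 in knockout libraries 2 and 3. The part of T cells in the Ms4a4b values was not tested. Ms4a4d (Entrez 66607), a little-described member, was below the filter, with 0.0313, 0.140 and 0.129 FPKM in the knockout and 0.133, 0.203 and 0.0546 FPKM in the control libraries, or 2 to 12 reads, and a difference was not detectable at this depth.

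**Figure D4:**
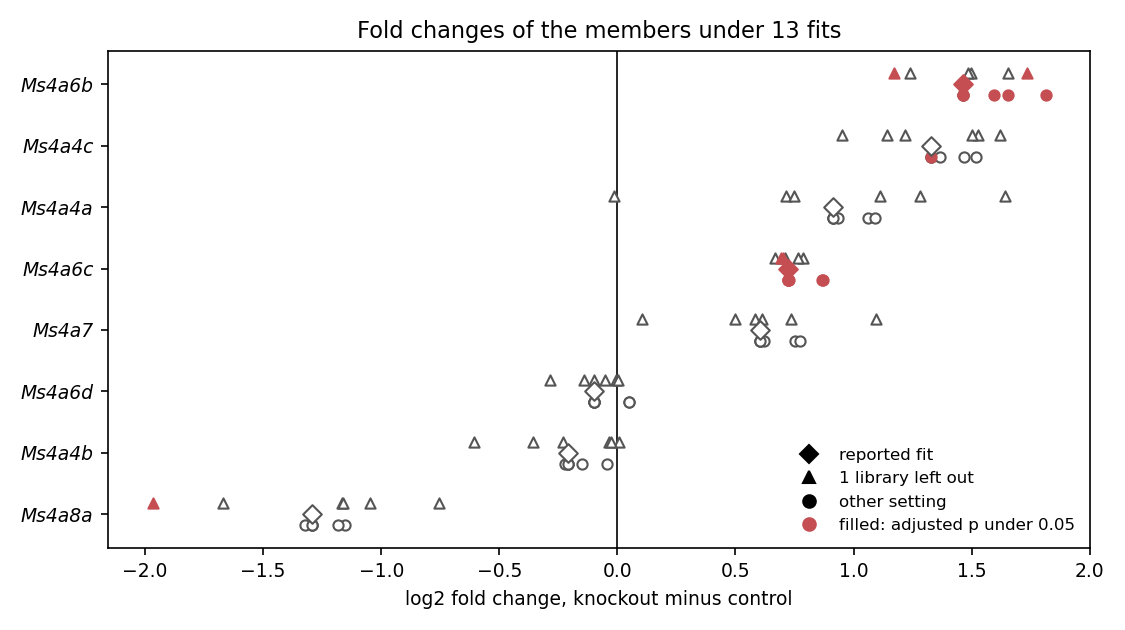
Log2 fold change of each tested member, knockout minus control, in the reported fit (diamonds), with 1 library left out (triangles) and under other settings (circles), filled where the adjusted p was under 0.05. All fits of Ms4a6b, Ms4a4c, Ms4a6c and Ms4a7 lie above 0 and all fits of Ms4a8a below it, while Ms4a4a, Ms4a6d and Ms4a4b cross 0.

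Members were compared with each other, and with other genes, by the root mean square difference of their centred log2(FPKM + 1) values over the 6 libraries, a description in which all points share the libraries and their scaling. The measure is small for any pair that varies little. The closest members were Ms4a4b and Ms4a6d (0.27), whose own root mean square deviations were 0.45 and 0.20, and the farthest were Ms4a4a and Ms4a8a (2.04). Among 5452 genes outside the family with a mean of at least 5 FPKM, Ms4a6c was nearest to Tlr2 (0.09), F7 (0.10) and Tnfrsf14 (0.10), and Ms4a6b to Adgrl2 (0.25), Clec12a (0.27) and Gsn (0.30). Ms4a4c was nearest to Ifi205 (0.15), Marchf5 (0.19) and Slfn9 (0.19). Tlr2, a receptor for bacterial lipoproteins, kept the groups as far apart as Ms4a6c did, at 377 to 385 FPKM in the knockout and 212 to 243 FPKM in the control libraries.

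For the members that varied among the controls, Ms4a4a was nearest to Fscn1 (0.26), Apol7c (0.35) and Arhgap22 (0.36), and Ms4a7 to Mthfd2 (0.07), Aqp9 (0.08) and Aars (0.09). Ms4a8a was nearest to Il21r (0.35), Fn1 (0.36) and Saa3 (0.37). Fscn1, which encodes an actin-bundling protein, measured 3.24, 11.4 and 35.1 FPKM in control libraries 1 to 3, lowest and highest in the same libraries as Ms4a4a. The genes nearest to Ms4a6d were Scfd1 (0.07), Pkp4 (0.08) and Itga4 (0.09), and those nearest to Ms4a4b were Cyp51 (0.17), Nfxl1 (0.17) and Smchd1 (0.18).

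The relatives of the members in B cells, mast cells and other tissues were scarce. Of 11 relatives 5 were listed and 4 tested, of which 1 was higher and 3 lower in mean level, and Ms4a1 alone passed, lower in the knockout libraries, with none higher by limma, by voom or at an unadjusted p under 0.05. Ms4a1, the CD20 gene, measured 0.775, 0.326 and 0.525 FPKM in the knockout libraries against 16.3, 16.1 and 2.35 FPKM in the controls. By limma it fell by 2.70 on the log2 scale, with an adjusted p of 0.0419 that lay between 0.0628 and 0.165 when any library but control library 3 was left out and was 0.113 by voom. Ms4a2, the IgE receptor chain gene, was at or below 0.0574 FPKM in every library. The median log2 fold change of the 4 tested relatives was -0.16, beside -0.11 over all genes.

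Of 10 genes whose products work with MS4A proteins, 9 were tested, 5 higher and 4 lower in mean level (median log2 fold change 0.09), and 1 passed in each direction. Trem2, the lipid receptor of macrophages, measured 190, 235 and 162 FPKM in the knockout libraries against 68.2, 63.2 and 76.0 FPKM in the controls. Its groups were far apart, with a difference of 1.47 on the log2 scale (limma, standard error 0.17, adjusted p = 0.00913) that failed the threshold without control library 2 (adjusted p = 0.0801) and without knockout library 1 (0.0564). Vsig4, the partner of Ms4a6d, measured 0.879, 2.0 and 1.29 FPKM in the knockout libraries against 11.4, 8.33 and 9.23 FPKM in the controls. It fell by 2.17 on the log2 scale (limma, standard error 0.20, adjusted p = 0.00547, or 0.0551 if control library 2 was left out), and it is also 1 of the 8 large peritoneal macrophage markers above.

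The other partners did not pass. Clec7a, the gene of Dectin-1, measured 75.7, 65.9 and 59.5 FPKM in the knockout libraries against 114, 106 and 70.0 FPKM in the controls, a log2 fold change of -0.50 (limma, adjusted p = 0.173, or 0.0232 if control library 3 was left out). Nlrp3, the inflammasome sensor, gave a log2 fold change of -0.30 (limma, adjusted p = 0.236). Il1b, whose product the inflammasome matures, gave -0.33 (limma, adjusted p = 0.765), which turned to 0.24 without control library 1. The GITR gene Tnfrsf18 was at or below 1.13 FPKM, with means under the filter. The signalling adaptors Fcer1g and Tyrobp, the kinase Syk and the adaptor Card9 gave log2 fold changes between 0.09 and 0.26.

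Genes that IL-4 or glucocorticoid induce in macrophages, as they do Ms4a8a, did not move in 1 direction. Of 9 tested, 4 were higher and 5 lower, 1 passed in each direction, and the median log2 fold change was -0.11. The knockout libraries all lay below the controls for 4 of them (Retnla, Chil3, Arg1 and Ccl24), where 23% of all tested genes did. They all lay above the controls for 2 (Mrc1 and Fkbp5), where 11.1% of all tested genes did. With the replicate block Chil3 and Ccl24 also passed as lower. Retnla, which encodes a secreted resistin-like protein, measured 8.71, 8.62 and 15.0 FPKM in the knockout libraries against 3428, 1507 and 98.5 FPKM in the controls, in the control order of Ms4a8a. It fell by 6.13 on the log2 scale (limma, adjusted p = 0.0283), and without control library 2 or knockout libraries 1, 2 or 3 the adjusted p was 0.134, 0.109, 0.115 and 0.0555, and it was 0.0605 with no filter on low values. Mrc1, the mannose receptor, was higher at 69.4, 66.8 and 63.4 against 46.2, 45.1 and 41.9 FPKM (0.57 on the log2 scale, limma, adjusted p = 0.0326), and lost the call without control library 2 (0.106) or knockout library 1 (0.154), 2 (0.163) or 3 (0.0606).

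Interferon-stimulated genes, a group in which Ms4a4c is often found, were higher in mean level for all 9 tested (median log2 fold change 1.22). For 7 of them the knockout libraries all lay above the controls, and control library 3 was the lowest of all libraries in each. None passed an adjusted p of 0.05 by limma without a block or by voom, and 8 had an unadjusted p under 0.05. With the replicate number as a block 5 passed (Cxcl10, Ifit2, Oas3, Rsad2 and Usp18), and the adjusted p-values of the 9 lay between 0.0173 and 0.0795 by limma. Ms4a4c had the same lowest library and also passed with the block.

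The neighbours of the cluster on chromosome 19 were compared by the gene order of GRCm38.p6. Between the outermost members lie 8 protein-coding genes that are not members, of which 3 were tested. Of the 20 nearest tested genes outside the cluster, 10 on each side, 1 passed, with a median log2 fold change of 0.11 over the 20. That gene, Stx3, a syntaxin of membrane fusion, was higher by 0.97 on the log2 scale (limma, adjusted p = 0.0497), and the adjusted p was over 0.05 in 7 of the 12 other fits, among them the replicate block (0.0663).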

How the data were processed

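RNA of 6 PEM libraries was analysed from 1 table. The FPKM values per library were computed by the authors from reads per gene, gene length and library size. The group means in the deposited table are a signal, reads divided by size factors. The fold change (ratio), log2 fold change and p-value columns of the deposited table hold the authors' own comparison and were not used, nor was a q-value column. The submitters' processing notes name mm9, and the aligner and counting are not given in the sources used here. Whole reads were recovered for 100% of values (within 0.05 read).

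Log2(FPKM + 1) was fitted with limma 3.58.1 in R 4.3.3 (lmFit, eBayes with a trend) over genes with a mean of at least 1 FPKM in a group, with Benjamini-Hochberg adjustment and a threshold of 0.05. Exact permutation tests used scipy 1.17.1. Alternatives were other filters and pseudocounts, a replicate block, each library left out, rescaling and voom. Those for genes outside the family were added after the data were seen. The genes named are the members, list genes that passed or have a stated role, and the 3 genes most like each member. Members and lists were chosen with earlier results of these data known. Some cell type markers are not reported here. The fits were tested on simulated data.

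Deviations from the group means correlated at 0.109, 0.110 and 0.304 for libraries of the same number, all over 0.1, so the numbers were taken as pairs. Libraries of different numbers correlated between -0.332 and 0.291, the highest being knockout library 2 with control library 1, and no label says what the numbers share.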

Additional observations from a re-analysis of the deposited data

How the results depend on the processing

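The number of members past the threshold was 2, and 1 (Ms4a6c) with no filter on low values. With 1 library left out it ran from 0 to 3. It was 0 without knockout library 1, 2 or 3 or control library 2, where 3, 3, 4 and 3 of 8 members had an unadjusted p under 0.05 by limma (17.8%, 16.0%, 26.0% and 19.7% of all tested genes, and 27.6% with all libraries). Without control library 3 it was 3, and 7 of 8 members had an unadjusted p under 0.05 by limma (31.1% of all tested genes). With the replicate block 3 members passed, Ms4a4c being added, and no other call of a member changed with the block. Over all genes 660 passed, and with 1 library left out the number ran from 8 (without control library 2) to 1278 (without control library 3). It was 30 without knockout library 1 and 63 without knockout library 2. Scaling by the median of ratios divided 669 calls into 343 higher and 326 lower, against 232 and 428, and voom divided 589 into 298 and 291. The direction turned for Ms4a4a and Ms4a4b without control library 1, for Ms4a6d without control library 2, after rescaling (0.049) and by voom (0.049), and for Il1b without control library 1. With 1 library left out, log2 fold changes ran from -0.012 to 1.64 for Ms4a4a, from -0.61 to 0.0079 for Ms4a4b, from -0.29 to 0.0034 for Ms4a6d and from -1.09 to 0.24 for Il1b. Of 96 other fits of the members, 80 kept direction and side of the threshold. The cause of these changes was not tested. With 3 libraries a group, intervals are wide for Ms4a4a, Ms4a7 and Ms4a8a, and the few reads of Ms4a4b and Ms4a4d limit what could be seen.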
